A study of Homo sapiens with 18 samples.

Results

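The genes described here were the human aldo-keto reductase genes *AKR1C1*, *AKR1C2*, *AKR1C3*, *AKR1C4* and *AKR1CL1* and the steroid 5-alpha reductase genes *SRD5A1*, *SRD5A2* and *SRD5A3*, which are 8 of the 22336 genes in the mRNA-seq table. Around their start sites, 39 of the 94527 WHG-STARR-seq enhancers and 13 of the 51909 ATAC-seq sites lay within 50 kb. The genes were picked by name with measured results of the series in view, so their levels and counts are given as descriptions without a test. LNCaP cells, an androgen-responsive human prostate cancer line, were used throughout. WHG-STARR-seq consisted of 2 output libraries, from RNA of cells harvested 72 h after transfection with a plasmid library of human genomic fragments, and 1 input library from the plasmids themselves. ATAC-seq was made from 3 cultures treated with trichostatin A (TSA), an inhibitor of histone deacetylases, at 100 ng/ml for 24 h and 3 cultures treated with DMSO as vehicle for 24 h. mRNA-seq was made from 3 TSA-treated, 3 vehicle-treated and 3 untreated cultures. All TSA and vehicle cultures, and the transfected cells, were kept in medium with charcoal-stripped serum, which removes most steroids. STARR-seq measures what a fragment can do on a plasmid outside its own chromatin.

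AKR1C enzymes use NADPH to reduce ketone groups on steroids. AKR1C3 converts androstenedione into testosterone, AKR1C2 inactivates dihydrotestosterone, AKR1C1 inactivates progesterone, and AKR1C4 acts on steroids and bile acid precursors in the liver. SRD5A1 and SRD5A2 convert testosterone into dihydrotestosterone, the more potent androgen, and SRD5A2 is the main form of the normal prostate. SRD5A3 is known for its role in making dolichol, the lipid that carries sugars for N-glycosylation of proteins. *AKR1CL1* is named *AKR1C8* in current annotation. The AKR1C genes form a cluster of duplicated genes on chromosome 10, and *AKR1C1* and *AKR1C2* are close to identical in sequence.

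Beginning with sequence, the most active of the 24 enhancers near the AKR1C genes belonged to a set of 3 related copies, 1 each beside *AKR1C1*, *AKR1C2* and *AKR1C3*. The same stretch of each copy is shown here because the copies differed in activity and in a recognition sequence of AP-1, the dimer of FOS and JUN proteins. Each is from GRCh37 and is printed 5′ to 3′ on the strand that aligns with the *AKR1C1* copy, with the 7 bases at the AP-1 position in capitals. They are chr10:4983826-4983952 (plus strand), chr10:5062556-5062682 (minus strand) and chr10:5121146-5121267 (minus strand).
AKR1C1 copy: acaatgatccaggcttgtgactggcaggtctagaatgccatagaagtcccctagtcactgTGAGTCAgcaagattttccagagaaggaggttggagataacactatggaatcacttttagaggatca
AKR1C2 copy: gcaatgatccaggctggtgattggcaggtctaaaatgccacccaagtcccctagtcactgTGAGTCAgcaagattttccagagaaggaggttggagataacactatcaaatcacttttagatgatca
AKR1C3 copy: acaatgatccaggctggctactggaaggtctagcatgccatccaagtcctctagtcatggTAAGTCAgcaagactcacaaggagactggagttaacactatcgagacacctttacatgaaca
The *AKR1C1* and *AKR1C2* copies both held TGAGTCA, the AP-1 letters TGACTCA read on the other strand. The *AKR1C3* copy differed by G2A, counted from 1 at the first capital, with the *AKR1C1* base given first, and had no match to the AP-1 letters anywhere in the enhancer. Over the stretch shown, 117 bases (92.1%) of the *AKR1C2* copy and 98 bases (77.2%) of the *AKR1C3* copy were identical to the 127 of the *AKR1C1* copy.

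Enhancer activity was the fold enrichment of output fragments at the summit over the scaled input level that the peak caller MACS2 set for it. This level need not be the input count at the summit itself. Activity was 8.22 for the *AKR1C1* copy (95% exact Poisson interval 6.91 to 9.70, 138 output fragments). For the *AKR1C2* copy it was 10.2 (8.55 to 12.1, 131 fragments), and for the *AKR1C3* copy 4.07 (3.16 to 5.17, 65 fragments). The interval of the *AKR1C3* copy lay below those of the other two, which overlapped each other. These intervals cover counting error of the output library only, and they take every fragment as independent. The authors kept identical fragments that came from separately indexed PCR libraries, so the counts may not be independent and the intervals may be too narrow. The intervals carry no error between replicates, since both output replicates were pooled before peaks were called. The *AKR1C1* copy spanned chr10:4983436-4984209, at -21.8 kb of the nearest *AKR1C1* start site, where negative distances are upstream. The *AKR1C2* copy at chr10:5062184-5063017 was at -16.4 kb of an *AKR1C2* start site, and both were intergenic. The *AKR1C3* copy at chr10:5120996-5121604 was in an intron of *AKR1C3*, 1.47 kb downstream of one of its alternative start sites. All 3 enhancers were closed, meaning that they overlapped none of the DNase I sites the study used for LNCaP cells under vehicle conditions, and none overlapped an ATAC-seq peak of TSA-treated or vehicle-treated cells. Words of 50 bases (runs of 50 letters) that recur elsewhere in the genome made up 20.4%, 13.1% and 0% of the *AKR1C1*, *AKR1C2* and *AKR1C3* copies. For 100 bases, the length of each STARR-seq read, the shares were 4.59%, 3.27% and 0%. Whether the differing AP-1 base bears on the activity of the copies was not tested. Over all enhancers, the median activity was 3.18-fold with an AP-1 match and 3.06-fold without one.

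**Figure D1:**
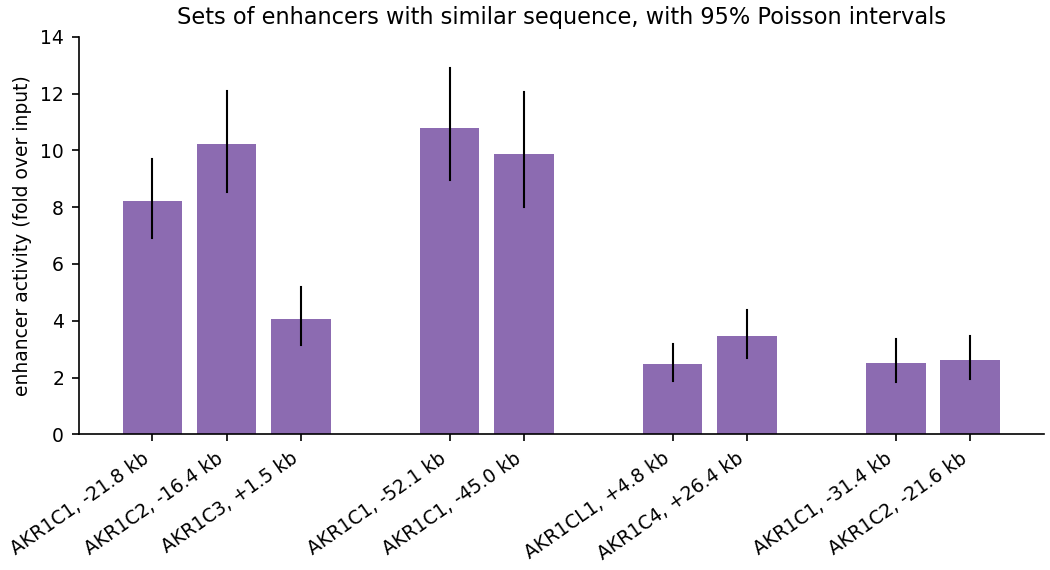
Enhancer activity (fold over input, linear axis from 0) of the sets of AKR1C enhancers that are sequence copies of each other, labelled by the nearest gene and the distance from its start site. Bars are pooled values and lines are 95% Poisson intervals of the output fragments. In the set of 3 on the left the *AKR1C3* copy had 4.07-fold activity, against 8.22 and 10.2 for the others.

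Of the 24 AKR1C enhancers, 20 had another copy covering at least 70% of their length elsewhere between positions 4900000 and 5340000 of chromosome 10, at 66.8% to 99.2% identity. For 8 of these 20 a copy overlapped another enhancer, and for 12 none did. The enhancer at chr10:4960270-4960971, -44.99 kb from *AKR1C1*, had 9.86-fold activity (7.99 to 12.05) and matched a 10.8-fold enhancer at chr10:4953033-4953927 with 89.7% identity. This second enhancer lay just beyond the 50 kb limit, at -52.1 kb of the canonical *AKR1C1* start site, as did one of 7.30-fold at -54.2 kb. The enhancers at chr10:4973880-4974458 and chr10:5067524-5068062, -31.4 kb from *AKR1C1* and -21.6 kb from *AKR1C2*, were 94.4% identical and had 2.51-fold (1.84 to 3.34) and 2.63-fold activity (1.95 to 3.48). Each held a match to the AP-1 letters and one to the NRF2 letters within 100 bases of its summit. NRF2 is the oxidative stress factor that binds the antioxidant response element. An enhancer in an *AKR1C1* intron at chr10:5017998-5018511 (3.51-fold, 2.44 to 4.91) had a 99.2% identical copy in which no enhancer was called. In that enhancer 76.4% of its words of 100 bases recurred in the genome. Only reads with a unique position were kept by the authors, and the number of read pairs lost to such repeats was not measured.

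With 3 of 24 AKR1C enhancers (12.5%) at an activity of at least 7-fold, the share was above that of all enhancers, 2.56%. The size of this contrast depends on the limit, since no AKR1C enhancer lay between 4.31-fold and 8.22-fold. At 5-fold the AKR1C count was the same 3 of 24, against 7.19% of all enhancers. The 8.22-fold and 10.2-fold enhancers among the 3 are copies of each other, so the AKR1C share counts duplicated sequence more than once. For all 8 genes the count at 7-fold was 3 of 39 (7.69%), since no SRD5A enhancer reached 7-fold, and at 5-fold it was 4 of 39. The other 21 AKR1C enhancers were under 5-fold, and the median over the 24 was 2.75, against 3.08 for all enhancers. They were seen with 30 to 138 output fragments at the summit (median 41). Of the 24, 15 lay within 50 kb of 2 AKR1C genes. By gene, 8 enhancers lay within 50 kb of *AKR1C1*, 9 of *AKR1C2*, 9 of *AKR1C3*, 7 of *AKR1C4* and 6 of *AKR1CL1*, where the median gene had 4. None of the 24 was in an exon or promoter, 10 were in introns and 14 were intergenic.

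None of the 24 AKR1C enhancers was open, and 2 of the 39 over all 8 genes were (5.13%), against 12.7% of all enhancers. An open enhancer within 50 kb was found for 56.5% of all genes and for no AKR1C gene. The pair of open ones were in the promoter of *SRD5A1* and in an intron of *SRD5A3*, 0.844 kb past its start. A match to the AP-1 letters was found in 8 of the 39 enhancers (20.5%, against 12.97% of all enhancers) and to the NRF2 letters TGACNNNGC in 14 (35.9%, against 23.2%), with 18 holding at least one of them (46.2%, against 31.5%). The 39 enhancers were slightly longer than the rest, with a median of 566 bases against 535. Within 100 bases of the summit, a window of the same length in every enhancer, 8 of 39 (20.5%) held an AP-1 or NRF2 match, against 13.2% of all. Among the 24 AKR1C enhancers, 13 held an AP-1 or NRF2 match and 7 held one near the summit. Both counts include the 8.22-fold and 10.2-fold copies and the 2.51-fold and 2.63-fold copies. Duplicated sequence is thus counted more than once in these shares. The letters TGTTTNC of the FOXA pioneer factors matched in 20 (51.3%, against 39.5% of all) and GGGCGG of SP1 in 2 (5.13%, against 13.7%). Of closed enhancers alone, 9.34% held the SP1 letters. Within 100 bases of the summit the FOXA share was 17.9%, against 15.1% of all, and the SP1 share 2.56%, against 5.80%. These motifs were read on both strands, and a match describes letters and shows no binding.

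Turning to accessibility, the AKR1C cluster had 6 ATAC-seq sites within 50 kb of a start site, of which 3 had a peak in TSA-treated cells and none in vehicle-treated cells, 1 had a peak in vehicle-treated cells alone and 2 had both. Over all 8 genes, 5 of 13 sites had a TSA peak alone (38.5%), against 25.9% of all sites, and 2 had a vehicle peak alone (15.4%), against 21.6%. The peaks were called by Fseq on the pooled libraries of each condition, so presence in a list has no replicate check and was not tested. A site missing from one list may have scored just under the lowest score kept, which was 0.0377 for the 40995 TSA peaks and 0.0390 for the 38813 vehicle peaks.

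The highest-scoring of the TSA-only sites near these genes was downstream of *AKR1C4*, at chr10:5264515-5265692, 26.3 kb past its start. Its Fseq score in TSA-treated cells was 0.141, rank 4269 of 40995, and it had no peak in vehicle-treated cells. Only 70 of all 13434 TSA-only sites (0.521%) scored higher. Yet its average read level, at a log2 CPM of 2.36 pooled over libraries, was under the median of all sites (3.54). That level counts reads over the whole site, is not divided by site width and cannot be read for 1 condition. Inside the site was a closed enhancer with 3.44-fold activity (2.68 to 4.37) at chr10:5264665-5265645. Repeated words of 50 bases, the ATAC-seq read length, made up 43.7% of the site, more than in any other of the 13. The effect of those repeats on the peak was not tested. The 2.47-fold enhancer at chr10:5222053-5222532 in an intron of *AKR1CL1* aligned over its full length with 93.3% identity to a stretch across the end of this enhancer, and it had no ATAC-seq peak in either condition.

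A second TSA-only site, at chr10:5241268-5242351, was in an intron of *AKR1C4*, 3.01 kb past its start, with a score of 0.0510. The third, at chr10:5113424-5114290 in an intron of *AKR1C3*, had a score of 0.0394, close to the lowest kept, and overlapped a closed enhancer of 3.74-fold activity (2.70 to 5.06). The single vehicle-only site of the cluster was also in an *AKR1C3* intron, at chr10:5085648-5086579, with a vehicle score of 0.0577. Of the sites with both peaks, one was at the canonical *AKR1C3* start, chr10:5136350-5137266, with scores of 0.0627 in TSA-treated and 0.0484 in vehicle-treated cells, a ratio of 1.30. The other, at chr10:5132024-5132662, scored 0.0549 in TSA-treated and 0.0414 in vehicle-treated cells, a ratio of 1.33. Over all shared sites the median ratio of TSA to vehicle scores was 1.07 with quartiles of 0.891 and 1.28, so both ratios lay just above the upper quartile. No ATAC-seq peak of either condition was found at the start sites of *AKR1C1*, *AKR1C2*, *AKR1C4* or *AKR1CL1*. For *AKR1C1* and *AKR1C2*, 48.7% of the words of 50 bases within 1000 bases of the start recur in the genome, against 0% for *AKR1C3* and *AKR1C4* and 0.410% for *AKR1CL1*. How many read pairs these repeats left unplaced was not measured.

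**Figure D2:**
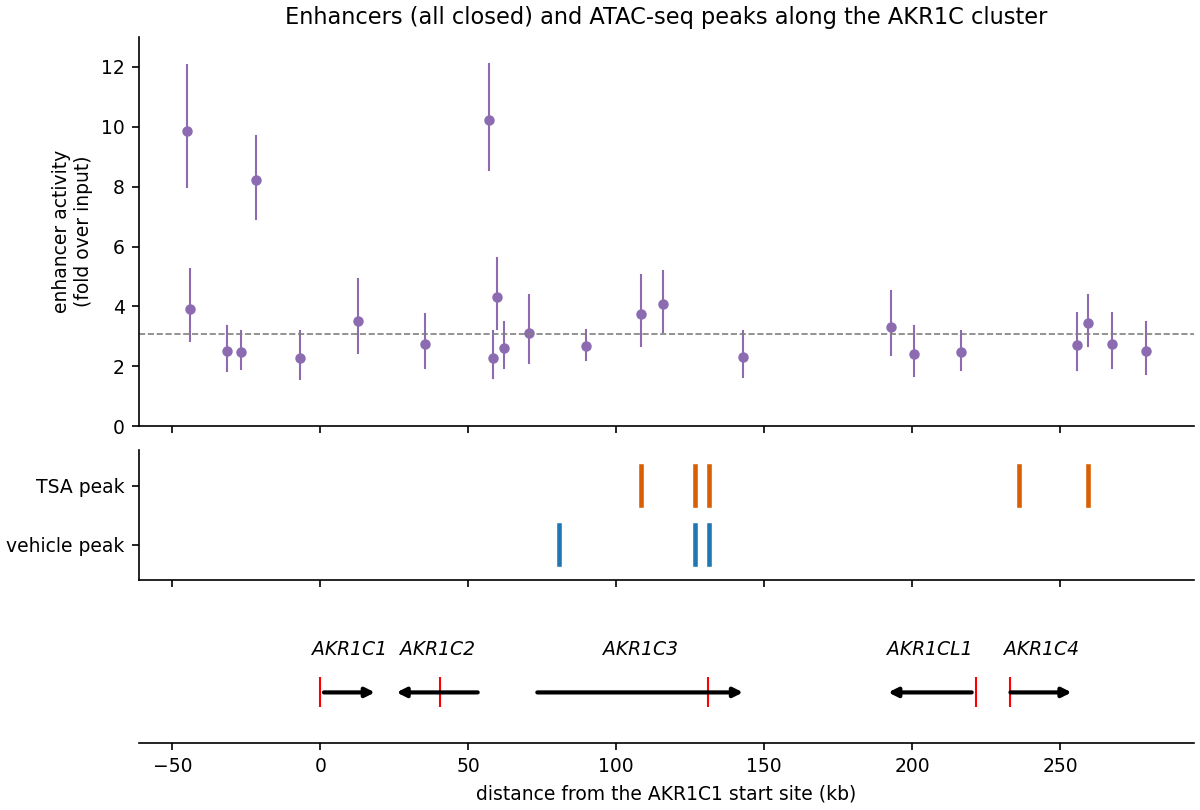
Top, enhancer activity (fold over input, lines are 95% Poisson intervals, dashed line is the median of all enhancers) along the AKR1C cluster by distance from the *AKR1C1* start site in kb. Below, ATAC-seq peaks of TSA-treated and vehicle-treated cells, and the genes as arrows in their direction of transcription with canonical start sites in red. The plot stops at 50 kb from the start sites and leaves out the 7.30-fold and 10.8-fold enhancers further upstream. The 3 enhancers over 7-fold that it holds flank *AKR1C1* and *AKR1C2*, while all 6 ATAC-seq sites lie from *AKR1C3* onward.

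The promoters of the AKR1C genes are printed because *AKR1C1*, *AKR1C2* and *AKR1C3* held a CCAAT match that *AKR1C4* did not, and only *AKR1C3* had peaks at its start. The sequences are RefSeq promoters of GRCh38.p14, 250 bases before to 50 after the start, 5′ to 3′ along the gene, with CCAAT (bound by NFY, read on either strand), TATAAA (the TATA box) and GGGCGG (SP1) in capitals. They are from chr10:4963165-4963464, chr10:5003808-5004107 (minus strand), chr10:5094164-5094463 and chr10:5196587-5196886.
AKR1C1 promoter: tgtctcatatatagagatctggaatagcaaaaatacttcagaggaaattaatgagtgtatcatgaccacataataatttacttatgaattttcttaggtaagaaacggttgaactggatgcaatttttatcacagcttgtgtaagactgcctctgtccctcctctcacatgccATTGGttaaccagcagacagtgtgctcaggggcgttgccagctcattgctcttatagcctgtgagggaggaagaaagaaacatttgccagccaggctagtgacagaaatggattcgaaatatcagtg
AKR1C2 promoter: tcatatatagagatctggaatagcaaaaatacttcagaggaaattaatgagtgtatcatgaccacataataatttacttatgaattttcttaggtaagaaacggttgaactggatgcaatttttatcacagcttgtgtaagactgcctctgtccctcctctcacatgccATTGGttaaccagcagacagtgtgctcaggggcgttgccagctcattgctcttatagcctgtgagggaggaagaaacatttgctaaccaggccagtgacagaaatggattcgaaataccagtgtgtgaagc
AKR1C3 promoter: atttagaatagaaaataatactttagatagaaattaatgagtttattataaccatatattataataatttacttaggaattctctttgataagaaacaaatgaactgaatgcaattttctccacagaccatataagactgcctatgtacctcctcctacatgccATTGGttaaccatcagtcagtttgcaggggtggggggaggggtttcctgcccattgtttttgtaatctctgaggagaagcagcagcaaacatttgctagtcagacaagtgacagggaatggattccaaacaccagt
AKR1C4 promoter: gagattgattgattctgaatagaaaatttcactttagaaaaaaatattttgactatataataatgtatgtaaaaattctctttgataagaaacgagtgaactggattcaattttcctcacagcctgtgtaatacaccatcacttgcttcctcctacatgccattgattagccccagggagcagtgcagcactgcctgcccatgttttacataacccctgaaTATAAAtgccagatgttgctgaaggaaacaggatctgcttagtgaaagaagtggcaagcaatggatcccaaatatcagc
Identity between promoters was counted over all alignment columns, with gaps as differences. The *AKR1C1* and *AKR1C2* promoters were 93.5% identical (288 of 308 columns), with part of the gaps at the ends, where the windows are shifted. The *AKR1C3* promoter was 71.6% identical to that of *AKR1C1*, that of *AKR1C4* 64.0%, and that of *AKR1CL1* 51.2%. A CCAAT match, in reverse as ATTGG, was held by *AKR1C1*, *AKR1C2* and *AKR1C3*, and 34.6% of all 35116 RefSeq promoters held one. The *AKR1CL1* promoter had 2 CCAAT matches, and an alternative *AKR1C3* promoter held 1 CCAAT and 1 TATAAA match. The *AKR1C4* promoter held no CCAAT match and had a TATAAA match, as did 11.5% of all promoters. No AKR1C promoter held an AP-1 or NRF2 match, against 4.95% and 13.3% of all promoters. The AKR1C promoters, with the alternative one of *AKR1C3* included, were 33.7% to 44% G and C with 0 to 3 CpG dinucleotides each, while those of *SRD5A1*, *SRD5A2* and *SRD5A3* were 71.0%, 67.3% and 62.0% with 33, 29 and 31.

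Among the 5-alpha reductase genes, *SRD5A1* and *SRD5A3* had accessible start sites in both conditions and *SRD5A2* had none. The promoters of *SRD5A1* and *SRD5A2* are printed for that contrast, at chr5:6633190-6633489 and chr2:31580889-31581188 (minus strand) of GRCh38.p14, with GGGCGG read on either strand in capitals.
SRD5A1 promoter: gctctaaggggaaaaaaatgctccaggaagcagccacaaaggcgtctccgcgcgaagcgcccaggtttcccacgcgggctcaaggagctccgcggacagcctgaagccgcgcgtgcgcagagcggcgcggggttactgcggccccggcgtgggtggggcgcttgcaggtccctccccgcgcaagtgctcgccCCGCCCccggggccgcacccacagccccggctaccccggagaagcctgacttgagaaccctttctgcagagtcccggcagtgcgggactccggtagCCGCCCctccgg
SRD5A2 promoter: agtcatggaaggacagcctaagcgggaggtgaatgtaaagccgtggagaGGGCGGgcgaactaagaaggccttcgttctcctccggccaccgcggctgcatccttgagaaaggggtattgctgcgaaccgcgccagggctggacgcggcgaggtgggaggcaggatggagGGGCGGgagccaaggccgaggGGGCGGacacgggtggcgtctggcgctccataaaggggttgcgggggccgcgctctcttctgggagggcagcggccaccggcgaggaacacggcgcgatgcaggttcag
GGGCGG matched 2 times in the *SRD5A1* promoter, 3 times in that of *SRD5A2* and 1 time in that of *SRD5A3*, and at least once in 44.95% of all promoters.

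The *SRD5A1* start site lay in a broad ATAC-seq site, chr5:6632228-6634773, with scores of 0.156 in TSA-treated and 0.156 in vehicle-treated cells, and a second site 3.03 kb downstream scored 0.122 in TSA-treated and 0.113 in vehicle-treated cells. The promoter itself was called as an enhancer at chr5:6632960-6633518. This open enhancer had 1.66-fold activity (1.19 to 2.26, 39 output fragments), lower than all but 0.106% of enhancers. *NSUN2*, an RNA methyltransferase gene, starts from the same region in the opposite direction. The most active enhancer near *SRD5A1* was 42.7 kb downstream, at chr5:6675937-6676665, closed and with 5.21-fold activity (4.19 to 6.41). The other 4 ranged from 1.82-fold to 3.79-fold.

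*SRD5A2* had 3 enhancers within 50 kb, all closed, at 3.83-fold (2.70 to 5.29), 2.75-fold and 2.29-fold. Its one ATAC-seq site was in an intron, 22.5 kb from the start at chr2:31783236-31783823, with a peak in vehicle-treated cells alone that scored 0.0412, close to the lowest score kept.

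At *SRD5A3* the start site had a peak in both conditions, at chr4:56212059-56213470, with scores of 0.0908 in TSA-treated and 0.110 in vehicle-treated cells, a ratio of 0.827. That ratio was below the lower quartile of shared sites. An open enhancer with 2.86-fold activity (2.10 to 3.82) lay 0.844 kb past the start within the site. Of its 5 closed enhancers, at 3.03-fold to 3.67-fold, the one at chr4:56177927-56178409 (3.03-fold, 2.18 to 4.11) overlapped a TSA-only site at -33.8 kb with a score of 0.0447. The other TSA-only site near *SRD5A3*, 40.0 kb downstream at the promoter of *SRD5A3-AS1*, scored 0.0415. A site at 33.0 kb had both peaks, with scores of 0.0415 in TSA-treated and 0.0541 in vehicle-treated cells. The enhancer in the TSA-only site is shown around its summit, chr4:56178175-56178375 on the plus strand of GRCh37, because an AP-1 match and an NRF2 match, both in capitals, stood 1 base apart in it.
SRD5A3 upstream enhancer: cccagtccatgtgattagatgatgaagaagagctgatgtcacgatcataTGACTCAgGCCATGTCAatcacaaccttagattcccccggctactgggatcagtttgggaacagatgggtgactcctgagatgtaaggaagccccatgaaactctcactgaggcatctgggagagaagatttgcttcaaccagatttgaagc

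Altogether, 3 of the 37 closed enhancers near the 8 genes (8.11%) were in a TSA peak with no vehicle peak, against 1.49% of all closed enhancers. They were the *AKR1C4* downstream enhancer, the intronic *AKR1C3* enhancer and the *SRD5A3* upstream enhancer, and each of the last pair had a score under 0.05. Of all genes, 3.11% had such an enhancer within 50 kb, and among the 8 genes *AKR1C3*, *AKR1C4*, *AKR1CL1* and *SRD5A3* did. For *AKR1C4* and *AKR1CL1* it was the same *AKR1C4* downstream enhancer. With 3 enhancers and 1 pooled list per condition, these shares could not be given an error.

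**Figure D3:**
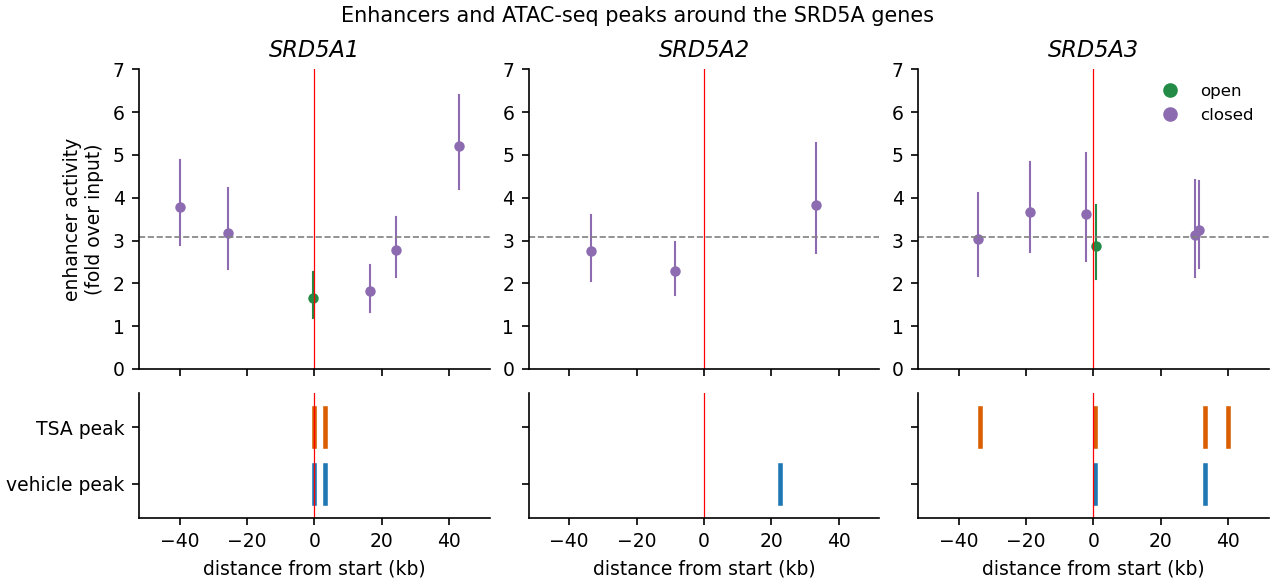
Enhancer activity (top, fold over input with 95% Poisson intervals, green open and purple closed, dashed line the median of all enhancers) and ATAC-seq peaks of TSA-treated and vehicle-treated cells (bottom) by distance from the start sites of *SRD5A1*, *SRD5A2* and *SRD5A3* in kb (red lines). *SRD5A1* and *SRD5A3* have peaks of both conditions at the start, and *SRD5A2* has none there.

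**Figure D4:**
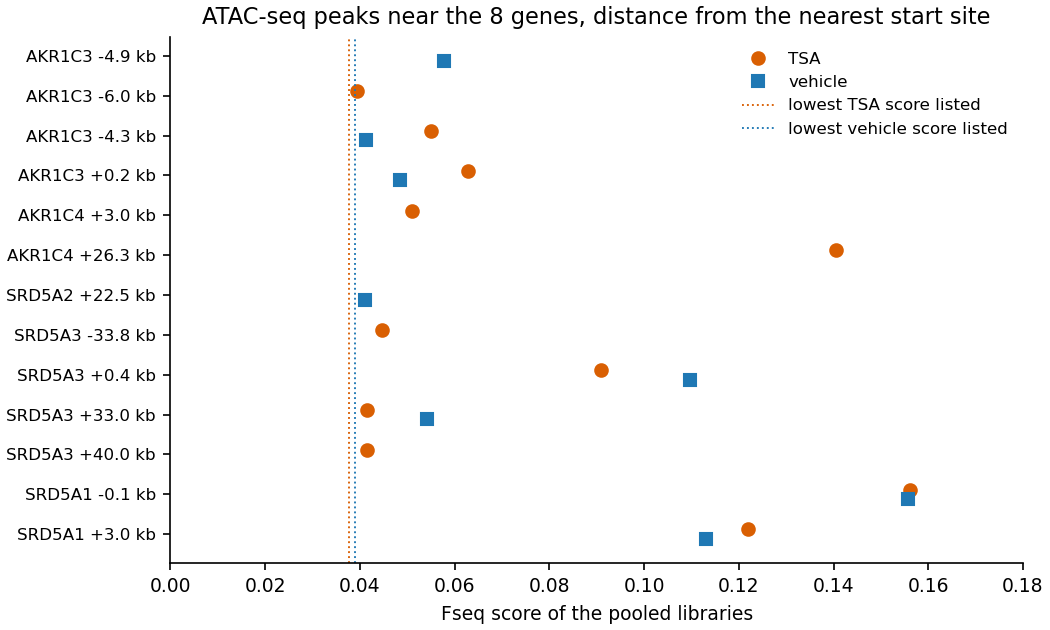
Fseq scores of the 13 ATAC-seq sites near the 8 genes in pooled TSA-treated (orange circles) and vehicle-treated cells (blue squares), labelled by the nearest gene and the distance from its start. Sites with 1 symbol had a peak in that condition alone, and dotted lines mark the lowest score each list kept. The TSA-only site 26.3 kb past *AKR1C4* (0.141) stands well above the other TSA-only sites, all at 0.0510 or less.

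Expression was given as the log2 of the average CPM over the pooled libraries of the authors' edgeR fit, with no value per library. The table does not name these libraries, so whether the untreated ones were averaged with the TSA-treated and vehicle-treated ones is unknown. Hence no level has an error, and no difference between conditions is given. At least 1 CPM was reached by 7 of the 8 genes, against 66.3% of all genes. *SRD5A3* averaged a log2 CPM of 5.46, *AKR1C2* 5.07, *AKR1C3* 4.68, *SRD5A1* 4.24, *AKR1C1* 4.21, *AKR1C4* 2.30 and *AKR1CL1* 1.93, and *SRD5A2* was under the threshold at -1.71, or 0.306 CPM. The median gene of the table was at 2.94 and the lowest value was -2.62. The *SRD5A2* value was near this floor, and so were the values per kb derived from it. In such bulk values, fewer expressing cells and less RNA per cell cannot be told apart.

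To compare genes, levels were divided by length. Per kb of the canonical transcript, the log2 CPM was 4.44 for *AKR1C3*, 3.44 for *SRD5A3*, 3.39 for *AKR1C2*, 2.05 for *AKR1C4*, 1.69 for *AKR1CL1*, 1.50 for *AKR1C1*, 1.43 for *SRD5A1* and -3.88 for *SRD5A2*, where the median gene was at 1.77. The order depends on annotation, since the canonical transcript is 6543 bases for *AKR1C1* and 1186 bases for *AKR1C3*. Per kb of coding sequence it became *SRD5A3* (5.53), *AKR1C2* (5.12), *AKR1C3* (4.73), *SRD5A1* (4.61), *AKR1C1* (4.26), *AKR1C4* (2.35), *AKR1CL1* (2.06) and *SRD5A2* (-1.31). On both scales *SRD5A2* was last, and *AKR1C2*, *AKR1C3* and *SRD5A3* were the first 3. Without an error between libraries, the order of close neighbours such as *SRD5A1* and *AKR1C1* cannot be called.

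**Figure D5:**
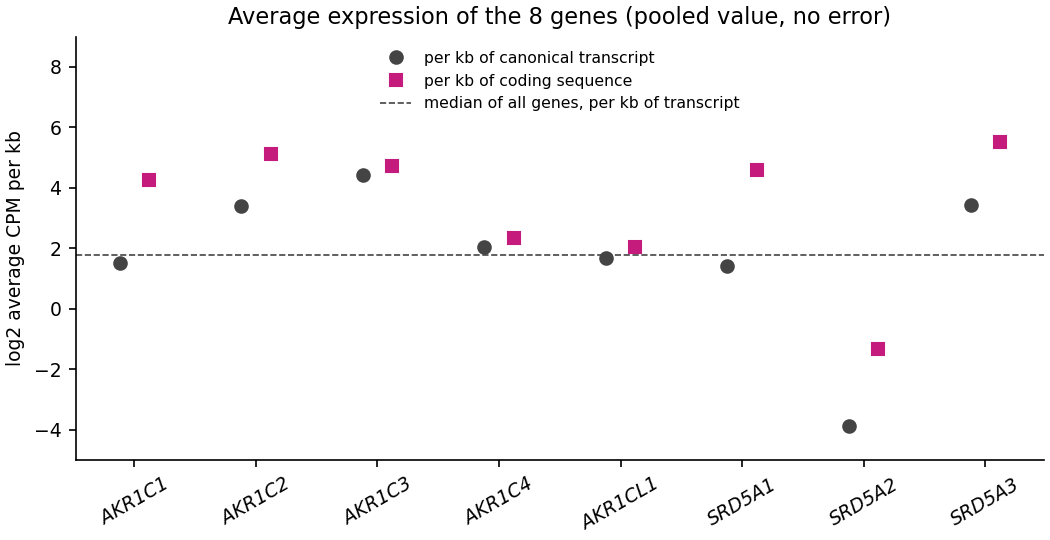
Pooled average expression of the 8 genes, as log2 CPM per kb of canonical transcript (grey circles) and of coding sequence (pink squares), with the median of all genes per kb of transcript as a dashed line. No error is drawn because the table holds 1 pooled value a gene; *SRD5A2* lies lowest on both scales, at -3.88 and -1.31.

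How far these levels can be assigned to one gene was limited by shared sequence. Of all 50-base words of the canonical transcripts, the mRNA-seq read length, 47.3% for *AKR1C2*, 22.7% for *AKR1C1*, 18.6% for *AKR1C3*, 14.2% for *AKR1C4* and 0.528% for *AKR1CL1* also occurred in transcripts of another gene. *AKR1C1* held 45.7% of the *AKR1C2* words. The values of *AKR1C1* and *AKR1C2* are therefore uncertain to the extent that the authors' counting split or dropped such reads. For *SRD5A3* the share was 39.2%, nearly all of it (38.5%) in 1 overlapping annotated transcript unit, and only 3.27% of its words were found elsewhere in the genome. *SRD5A1* had 1.13% and *SRD5A2* 0%.

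Genes that act beside the members were described from lists, as log2 CPM per kb of transcript, with the 3 highest and 2 lowest of each list by average CPM. Before division by length, *CYP11B2*, *HSD11B1* and *SULT2A1* were at the lowest log2 CPM of the table, -2.62. Their values per kb therefore differ by transcript length alone. *HSD17B2* (-2.55) and *CYP11B1* (-2.47) were close to that floor before division. Of all genes 66.3% reached 1 CPM, and of 13 steroid synthesis genes 4 did. They were led by *CYB5A* (5.53), *POR* (4.82) and *FDX1* (4.07), which carry electrons to steroid-making cytochromes, while *CYP11B1* (-4.30) and *CYP11B2* (-4.18), the adrenal corticosteroid enzymes, were lowest. Of 14 genes listed under androgen interconversion, 10 reached it, with *HSD17B4* (7.02), *HSD17B10* (6.90) and *HSD11B2* (4.73) highest. *HSD11B1* (-3.09) and *HSD17B2* (-3.07) were lowest. The name of this list does not mean that androgens are the main substrate of each enzyme in it. Among 10 genes of androgen inactivation and sulfation, 7 reached it. *UGT2B15* (8.62) and *UGT2B17* (7.06), which glucuronidate dihydrotestosterone and the androstanediol made by AKR1C2, and the sulfotransferase *SULT1A1* (6.26) were highest, and *SULT2A1* (-3.55) and *SULT1E1* (-3.16) lowest. All 15 NRF2 pathway genes reached it, with *TXNRD1* (7.31), *TKT* (7.06) and *TALDO1* (7.47) highest and *GCLM* (2.29) and *HMOX1* (4.04) lowest. Of 8 other aldo-keto reductases, 4 reached it, led by *AKR1A1* (6.76), *AKR7A2* (4.46) and *AKR7L* (1.70), with *AKR1E2* (-3.03) and *AKR1B1* (-1.72) lowest. All 7 genes of dolichol synthesis reached it, with *NUS1* (3.63), *DPM1* (5.53) and *DHDDS* (3.65) highest and *DPAGT1* (3.87) and *ALG5* (4.76) lowest by average CPM, beside 3.44 for *SRD5A3*. An open enhancer lay within 50 kb of 56.5% of all genes and of 0 of the 5 AKR1C genes. These 5 are neighbours in 1 cluster, where 15 of 24 enhancers lay near 2 of them. By list, one lay near 1 of the 10 androgen inactivation and sulfation genes, 7 of the 14 listed under androgen interconversion and 5 of the 8 other aldo-keto reductases. The counts were 9 of the 13 steroid synthesis genes, 6 of the 7 dolichol genes and 14 of the 15 NRF2 pathway genes.

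Markers of luminal prostate cells, *KLK3*, *KLK2*, *TMPRSS2*, *HOXB13*, *KRT8* and *KRT18*, reached 1 CPM, as did 66.3% of all genes. Of the markers of other cells, *PTPRC*, *CD3E*, *KRT14*, *TP63*, *DCN* and *PECAM1* were under 1 CPM, while *KRT5*, *COL1A1*, *COL1A2* and *VWF* were above it, at a log2 CPM of 6.23, 6.77, 0.37 and 2.42 in the pooled average that includes TSA-treated cells. Their part in the members' levels was not tested.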

How the data were processed

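WHG-STARR-seq, ATAC-seq and mRNA-seq libraries of LNCaP cells were analysed from the processed files. STARR-seq read pairs were placed on hg19 by the authors using Bowtie. Pairs with several positions were dropped, and fragments with the same ends were merged by Picard within each separately indexed PCR library. Identical fragments from different indexed libraries were all kept. MACS2 was run on the summed output replicates over the input at a q-value under 0.05. The deposited lists give a fold enrichment (a ratio of output over input), a −log10 p-value and a −log10 q-value per enhancer, and the score of the overlapping DNase I site. For ATAC-seq, the authors aligned reads with Bowtie, then trimmed the unmapped ones with cutadapt and aligned these with Bowtie2, offset all to the transposase position, and called peaks with Fseq on the pooled libraries of each condition; the deposited score of each peak has no stated scale. For mRNA-seq, reads mapped with TopHat were counted per RefSeq gene. The deposited gene and site tables give, per the file headers, a log2 average CPM from the authors' edgeR fits. Their other columns hold the authors' TSA against vehicle comparison (log fold change, likelihood ratio, p-value and, for some, q-value) and were not used. Tool versions and total reads per library were not given in the sources used here, so depth is stated only as fragments at each summit. Groups came from the labels (18 samples), and the 3 untreated mRNA-seq libraries are not described separately.

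Output fragments were recovered from fold and p-value, coming within 0.0278 of a whole number for 94309 enhancers, and gave exact Poisson 95% intervals. On simulated data for 4994 enhancers all such counts were recovered. Distances run from an enhancer or site centre to GENCODE basic start sites on GRCh37, and a promoter is 1000 bases before to 100 after a start. Peaks overlapping by at least 1 base were shared. Copies were aligned with blastn 2.17.0 (E-value 1e-20) and promoters with Biopython 1.88. The members, gene lists and motifs were chosen with earlier results of these data known. From each list the text names the 3 genes highest and the 2 lowest by average CPM, and all 8 members. The stretches of sequence shown and the copy sets were singled out after their values were seen. Alternatives were other distance limits, q-values, start sites, list lengths, overlaps, motif windows and word lengths. A further marker gene, and further motifs and sequences, are left out. Matches to CCAAT and TATAAA are given for promoters only.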

Additional observations from a re-analysis of the deposited data

How the results depend on the processing

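No paired analysis was possible because the files hold only pooled values, and for the same reason no replicate could be left out. The 39 enhancers within 50 kb became 13 at a q-value under 1e-10 and 23 at 25 kb. The 2 open enhancers became 1 at a q-value under 1e-05 and 0 at 1e-10, where fewer enhancers remain by construction. The 11 TSA peaks became 7 with the 30000 highest scores of each list, 7 at 25 kb and 17 at 100 kb. The 8 vehicle peaks became 13 at 100 kb. Sites with a TSA peak alone numbered 3 with the 30000 highest scores, 2 at 25 kb and 8 at 100 kb, in place of 5. Sites with a vehicle peak alone numbered 4 at 100 kb, in place of 2. The 18 enhancers with an AP-1 or NRF2 match became 8 within 100 bases of the summit. With words of 75 bases the share found in another gene was 12.3% for *AKR1C3*, 5.55% for *AKR1C4* and 0% for *AKR1CL1*, and with words of 36 bases 3.39% for *AKR1CL1*. The other 27 of these recalculated values stayed within 1.5 times the reported one. Among genes of at least 1 CPM, the percentiles of 7 members were lower, at 15.1 for *AKR1CL1* to 63.8 for *SRD5A3*, in place of 43.7 and 76.0 among all genes.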
